A study of Saccharomyces cerevisiae with 22 samples.

Results

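Sef1 was 1 of 8 yeast DNA-binding proteins whose Sir4 fusions were mapped together as calling cards, and its 2 barcoded libraries, 1 from each replicate pool, are described here against the 14 libraries of the other 7 fusions (Gal4, Kar4, Lee1, Rgm1, Rpi1, Sfg1 and Yrm1). The Sef1 libraries were chosen by their barcode label and are 2 of the 22 libraries of the study. They held 15004 and 14345 distinct Ty5 insertion sites, 29349 together, of 280007 sites in the 16 pooled libraries and 444512 in all. The other 14 libraries held 250658 sites. Sites were counted once each by chromosome, position and strand, without regard to how often they were read.

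All 16 libraries came from the same Saccharomyces cerevisiae diploid, MATa/MATα, with both SIR4 copies replaced (sir4::KanMX), trp1::Hyg, his3∆1, leu2∆0 and ura3∆0 on both copies, and met15∆0/MET15 and LYS2/lys2∆0. The same diploid without any Sir4 served as the background library. Colonies that were His+ and resistant to FOA were harvested after growth in complete synthetic medium with glucose or galactose. The sources used here do not say which sugar each library had or how the pooled fusions were expressed. The 8 fusions of a pool were profiled in 1 experiment, and the 2 pools are described as biological replicates.

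Ty5 is a retrotransposon whose integrase is held by Sir4, a silencing protein, and a transcription factor fused to a piece of Sir4 therefore draws Ty5 insertions to the DNA it binds. Sef1 belongs to the fungal zinc-cluster family, the family of Gal4, whose members bind DNA through a pair of zinc ions held by cysteines. In budding yeast it was named as a suppressor of the loss of an essential function, and its targets are little described. The homologue in the pathogen Candida albicans activates iron uptake genes when iron is scarce.

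Among the bins with more Ty5 sites in Sef1 than in the other fusions were bins in front of several citrate cycle genes. Others lay in front of a few genes of mitochondrial electron transport and of several regulators of respiration and iron use. Several of these bins are shared with a neighbouring gene. The genome was divided into 1-kb bins along the coordinates in the files, for which no build is stated, and a bin was called at an adjusted p below 0.05 (edgeR quasi-likelihood test over the 16 libraries, Benjamini-Hochberg adjustment). Of 5460 tested bins, 200 (3.66%) were higher in Sef1 than in the mean of the other 7 fusions, at 165 loci of touching bins, of which 136 were a single bin. One bin (0.0183%) was lower, and 60 were lower at an unadjusted p below 0.05. Each log2 difference sets Sef1 against the mean of the log2 levels of the other 7 fusions, fitted on TMM-normalised counts. A single fusion with many sites raises this mean less than it raises a mean of shares. For this reason, and through the TMM scaling, the value can depart from what the printed raw shares would give. At YMR103C the log2 difference was 3.51, with mean shares of 1.46% in Sef1, 2.36% in Yrm1 and 0.457% over the other 14 libraries. The 200 higher bins had a median log2 difference of 2.45 (0.95 to 5.32), and the median over all tested bins was -0.13. The number and the split of calls moved with the scaling. With relative-log-expression factors 124 bins were higher and 27 lower, with DESeq2 113 and 29, and the relative-log-expression scaling shifted the median of all bins by -0.54. The 25 bins with the smallest p were called under every setting that kept 1-kb bins.

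**Figure D1:**
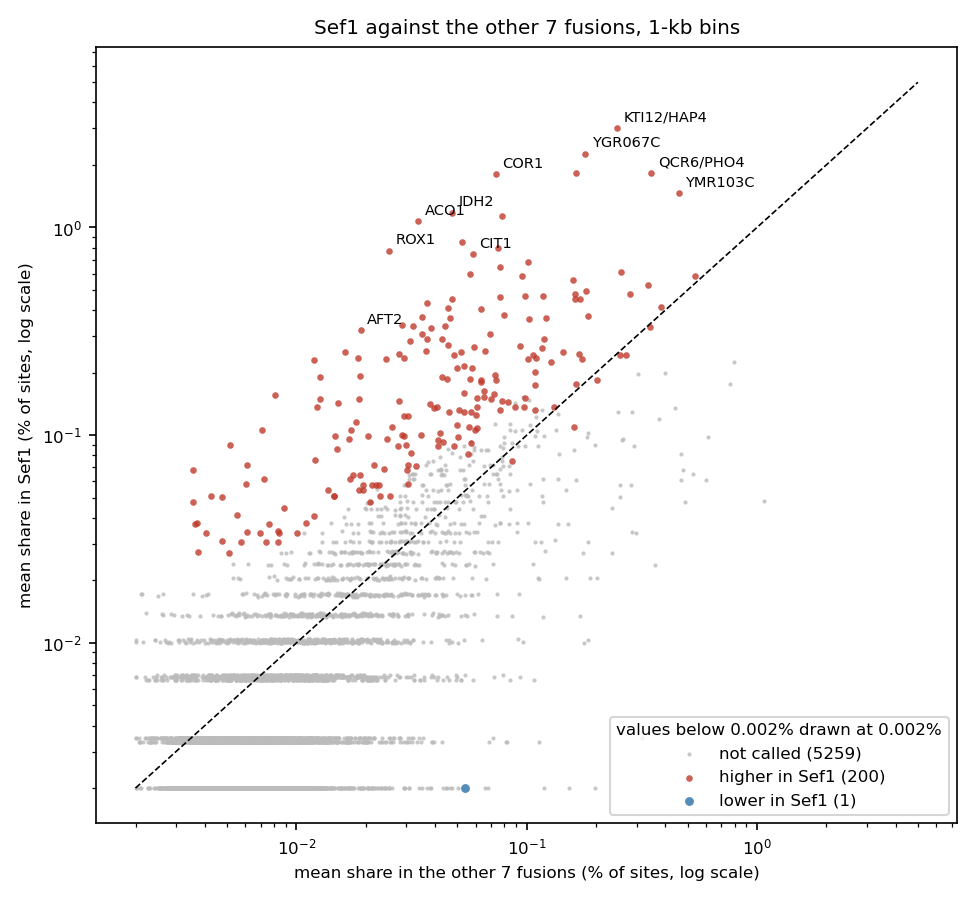
Mean share of library sites per 1-kb bin in Sef1 (vertical, percent, log scale) against the mean of the other 7 fusions (horizontal, percent, log scale), with 1 point per tested bin and equality as a dashed line. Of the 200 higher bins (red), 190 had a Sef1 share above the mean of the others in both replicates, and the 1 lower bin (blue) is on the floor of the plot among 5259 uncalled bins (grey).

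The 200 bins took 53.0% and 54.6% of the sites of the Sef1 libraries. In the other 14 libraries they held between 6.23% and 29.96%, with a median of 11.3%, and the Sir4-free library placed 7.80% of its sites there. The highest of the others were the Gal4 libraries with 29.96% and 29.8%, then Yrm1 with 18.1% and 18.3%. Because these bins were chosen on the same sites, the choice was repeated without 1 Sef1 library at a time. Of 139 bins chosen without Sef1 replicate 2, 134 had a share above the mean of the other fusions in that replicate, and the 139 bins held 47.7% of its sites. Of 150 bins chosen without Sef1 replicate 1, 142 did so in replicate 1, and the 150 bins held 48.6% of its sites. The left-out Sef1 replicate lay above every other library of its pool in 100 bins of the first set and 107 of the second. The other 14 libraries had 4.30% to 22.5% of their sites in the first set and 5.04% to 27.1% in the second. These 14 libraries took part in both choices, so only the left-out Sef1 library is independent of them. The counts of bins above the other libraries therefore follow in part from the choice. The same counts over all tested bins are not given here.

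The stretch between KTI12, a gene of tRNA modification, and HAP4 was the fullest Sef1 locus. HAP4 encodes the activating subunit of the Hap2/3/4/5 complex, which turns on genes of respiration when glucose is low. The stretch of 3 bins (chromosome 11, 229001 to 232000) held 799 and 714 Sef1 sites, or 5.33% and 4.98% of the libraries. Gal4 followed with 2.25% and 1.65%, the 12 libraries of the other 6 fusions ranged from 0.0538% to 0.322%, and the Sir4-free library had 0.123%. In the middle bin (230001 to 231000) Sef1 had 477 and 409 sites, a share of 3.02% ± 0.232 (SD, n = 2), against 0.0192% to 1.20% in the other 14 libraries (median 0.136%), and the log2 difference was 4.40 ± 0.15 (SE; adjusted p 1.15e-172). The bin next to HAP4 (231001 to 232000) held 280 and 257 Sef1 sites, 1.83% ± 0.0528, and the others between 0.00672% and 1.02%. No other library reached either Sef1 value in these bins, and against Gal4 alone the log2 differences were 1.10 ± 0.20 (adjusted p 2.54e-06) and 0.62 ± 0.20 (adjusted p 0.0359).

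**Figure D2:**
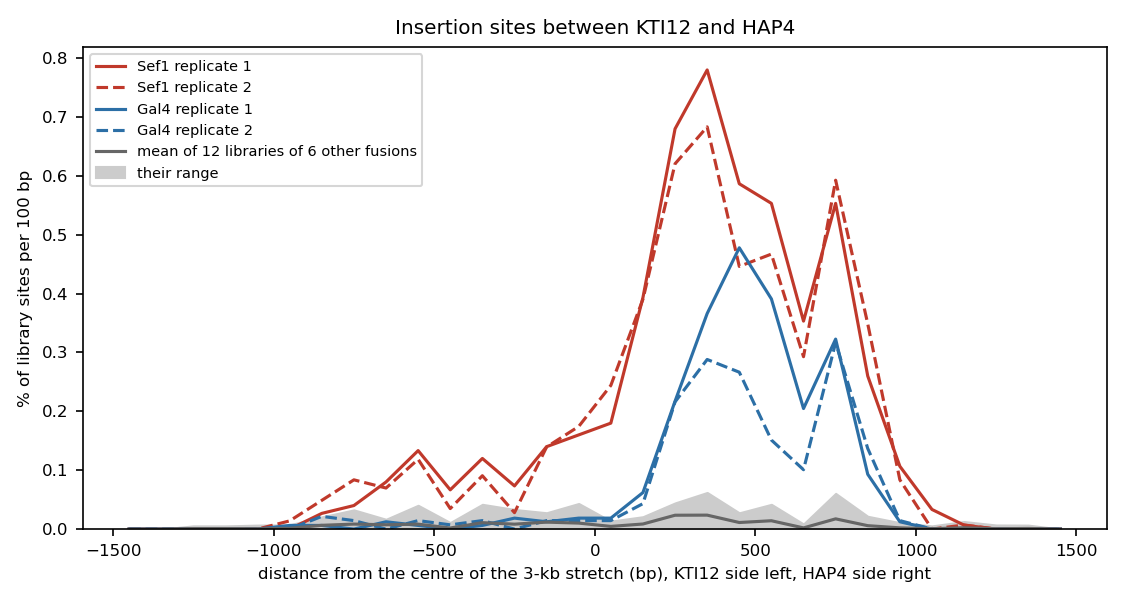
Percent of library sites per 100 bp (vertical) by distance from the centre of the 3-kb stretch between KTI12 and HAP4 (horizontal, bp), for each Sef1 and Gal4 replicate, with the mean (dark grey) and range (light grey) of the 12 libraries of the other 6 fusions. Both Sef1 curves peak 350 bp to the HAP4 side of the centre, at 0.780% and 0.683%, and the Sef1 curves also hold sites on the KTI12 side.

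Within this stretch both Sef1 libraries had their highest window 350 bp to the HAP4 side of the centre, with 0.780% and 0.683% of all sites in 100 bp. In the 12 libraries of the other 6 fusions no 100-bp window exceeded 0.0622%. Insertions lay in both directions, with 48.7% and 46.6% on the plus strand. Among the 25 leading bins, the fullest 100 bp was the same window in both Sef1 replicates in 19, and it held 16.7% to 59.8% of the sites of its bin (median 34.5%). At ROX1, for example, 64 of 115 and 64 of 112 sites fell in 1 such window.

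Genes of the citrate cycle, which oxidises acetyl units in the mitochondrion, formed the list with the highest share of called members. A list member was called when a higher bin overlapped the 600 bp upstream of its 5′ end, as 255 of 5126 genes with a tested bin were (4.97%). Of 13 tested citrate cycle genes 7 were called (CIT1, CIT3, ACO1, IDH1, IDH2, FUM1 and MDH1), and the median log2 difference of the list was 2.71 against -0.05 over all genes. These lists were drawn up with earlier results of these data known, so their counts are a description.

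IDH2, for a subunit of NAD-dependent isocitrate dehydrogenase, had 180 and 166 Sef1 sites in the bin it shares with BAG7 (chromosome 15, 579001 to 580000), or 1.18% ± 0.03. The other 14 libraries had 0% to 0.222% (median 0.0269%), and the log2 difference of 5.32 ± 0.19 was the largest of all called bins (adjusted p 2.08e-160). ACO1, the gene of aconitase, an iron-sulfur enzyme, had 170 and 146 sites, 1.08% ± 0.0815, against 0% to 0.0829% in the others, with a log2 difference of 5.09 ± 0.20. At both genes the 2 Sef1 libraries lay above all 14 others and the bin passed against each of the 7 fusions. CIT1, the mitochondrial citrate synthase, had 110 and 109 Sef1 sites (0.746% ± 0.0189), against 0.0256% to 0.0967%. IDH1, the partner subunit of IDH2, had 51 and 48 (0.337% ± 0.00375) in the bin it shares with NCE103, against 0% to 0.0807%.

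FUM1, for fumarase, shares its bin with KEL3 and had 34 and 23 Sef1 sites (log2 difference 4.04 ± 0.39). MDH1, the mitochondrial malate dehydrogenase, had 67 and 70 Sef1 sites, 0.467% ± 0.0293, in a bin shared with CYT2 and SRX1. There Gal4 was higher than Sef1, at 0.601% ± 0.077, with a log2 difference of Sef1 over Gal4 of -0.79 ± 0.22 (adjusted p 0.00878). CIT3, a citrate and methylcitrate synthase, rested on 7 and 3 sites (adjusted p 0.0197), and this call was lost under 7 alternatives. The uncalled members of the list with most Sef1 sites were KGD1 and KGD2 of the ketoglutarate dehydrogenase, with 3 and 0 and with 2 and 2 sites, and LSC2 of the succinyl-CoA ligase with 3 and 3. With no site found, the share in a Sef1 library could still reach 0.0200% (replicate 1) or 0.0209% (replicate 2), which is 3 sites.

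Cytosolic and peroxisomal relatives of these enzymes were called too. In the list of the glyoxylate cycle and gluconeogenesis 4 of 10 members were higher, against 4.97% over all genes. MLS1, for malate synthase, had 44 and 30 Sef1 sites in the bin it shares with DCP2, 0.251% ± 0.0595, against 0% to 0.0606% in the other libraries, a log2 difference of 4.79 ± 0.38. IDP2, the cytosolic NADP-dependent isocitrate dehydrogenase, had 36 and 32 sites (log2 3.61 ± 0.33), MDH2, the cytosolic malate dehydrogenase, 48 and 42 (2.57 ± 0.26), and CIT2, the peroxisomal citrate synthase, 35 and 36 (1.41 ± 0.25). CIT2 was the weakest of the 4 and missed the threshold with relative-log-expression factors (adjusted p 0.060, edgeR). ICL1 for isocitrate lyase and FBP1 for fructose-bisphosphatase were not called, with 5 and 6 and with 11 and 9 Sef1 sites.

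**Figure D3:**
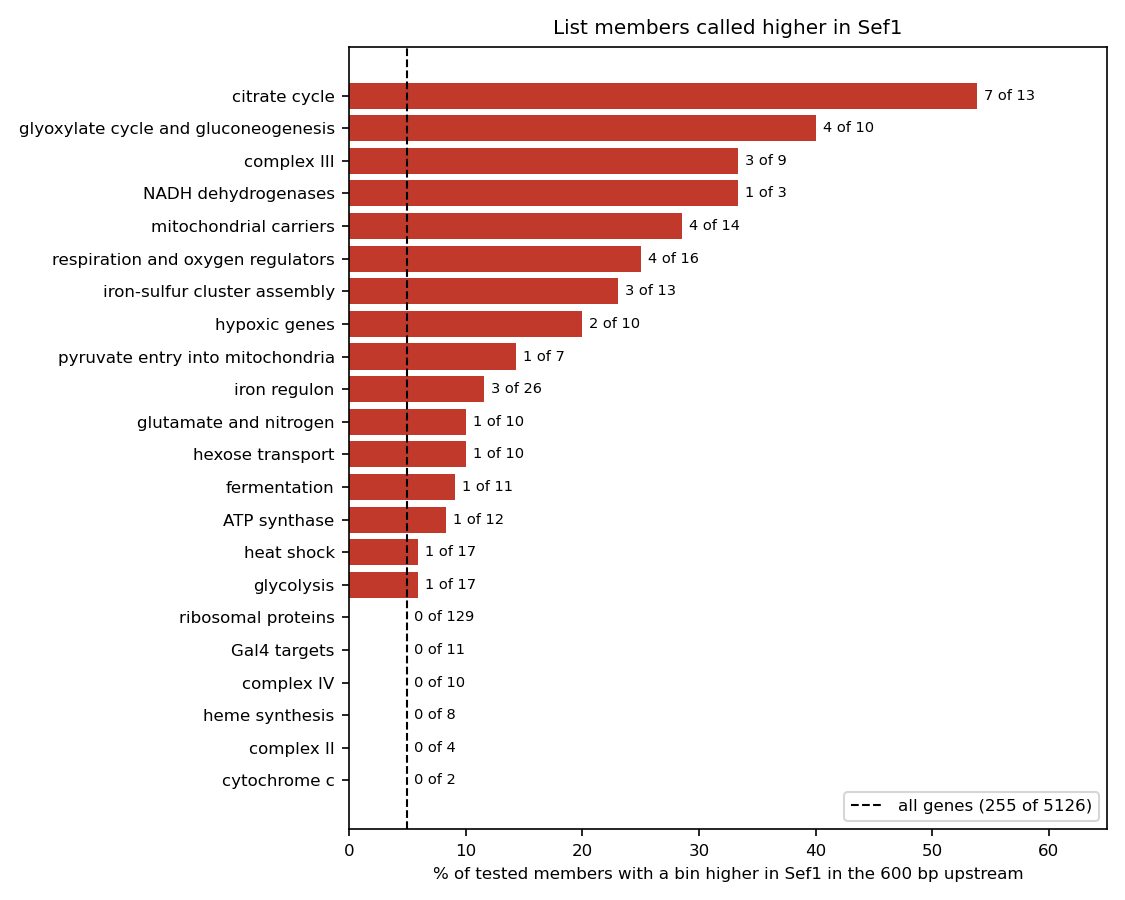
Percent of the tested members of each gene list (horizontal) with a bin higher in Sef1 in the 600 bp upstream, with the counts at the bar ends and the level over all genes, 255 of 5126, as a dashed line. The citrate cycle stands at 7 of 13, while the lists of complexes II and IV, cytochrome c, heme synthesis, Gal4 targets and ribosomal proteins have 0 called members. At the level over all genes a list of few members can hold 0.

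Among the genes of the electron transport chain and the ATP synthase 5 of 40 tested members were called, against 4.97% over all genes. Complex III, the cytochrome bc1 complex, had 3 of 9. The bin of COR1, a core subunit of that complex, also touches the 5′ ends of YBL044W and ECM13 (chromosome 2, 136001 to 137000). It held 258 and 270 Sef1 sites, 1.80% ± 0.115, against 0.0192% to 0.199% in the other 14 libraries (median 0.0662%), with a log2 difference of 4.89 ± 0.17 and the smallest adjusted p of all bins, 2.98e-176. Sef1 exceeded each of the 7 fusions there. QCR6, the hinge subunit, shares a bin with PHO4, the activator of the phosphate regulon, and had 254 and 281 Sef1 sites or 1.83% ± 0.188.

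At QCR6 the Gal4 libraries averaged 1.38% ± 0.029, and the difference of Sef1 from Gal4 did not pass (log2 -0.03 ± 0.20), although both Sef1 shares were above both Gal4 shares. QCR7 was called on 9 and 8 sites (adjusted p 0.0362) and lost the call under 12 alternatives. NDE1 encodes the mitochondrial NADH dehydrogenase that faces the cytosol. Its own bin held 88 and 87 Sef1 sites (0.596% ± 0.0141), and the bin just upstream (chromosome 13, 557001 to 558000, near TIF34) held 128 and 121 (0.848% ± 0.00679), against 0% to 0.0898% in the other libraries. ATP14 of the ATP synthase, with 9 and 20 sites, was the member of its list of 12 that was called, and leaving out Sef1 replicate 2 removed the call (adjusted p 0.475, edgeR). No tested member of complex II (4), complex IV (10) or the cytochrome c list (2) was called, SDH1 having 7 and 7 Sef1 sites, COX8 2 and 1, and CYC1 2 and 4. At 4.97% over all genes, lists this small can hold 0 called members, so these counts are not read as a result about them.

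Regulators of respiration and of the response to oxygen were called in 4 of 16 cases (4.97% over all genes), HAP4 among them. ROX1, the repressor of hypoxic genes, had 115 and 112 Sef1 sites in the bin it shares with YPR064W, 0.774% ± 0.0101, against 0% to 0.0555% in the other 14 libraries (median 0.0245%). Its log2 difference was 5.10 ± 0.22 and it passed against each fusion. MOT3, which acts with Rox1 on hypoxic genes, had 87 and 102 sites in the bin shared with NAT4 (log2 3.27 ± 0.20). ADR1, an activator of genes that glucose represses, had 77 and 69 Sef1 sites (log2 2.65 ± 0.22), and Gal4 was higher there. HAP1, ECM22 and MIG1 were not called, with 12 and 7, 8 and 11, and 9 and 4 Sef1 sites. The count of called members was 4 in all 26 alternatives in which the lists were counted.

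**Figure D4:**
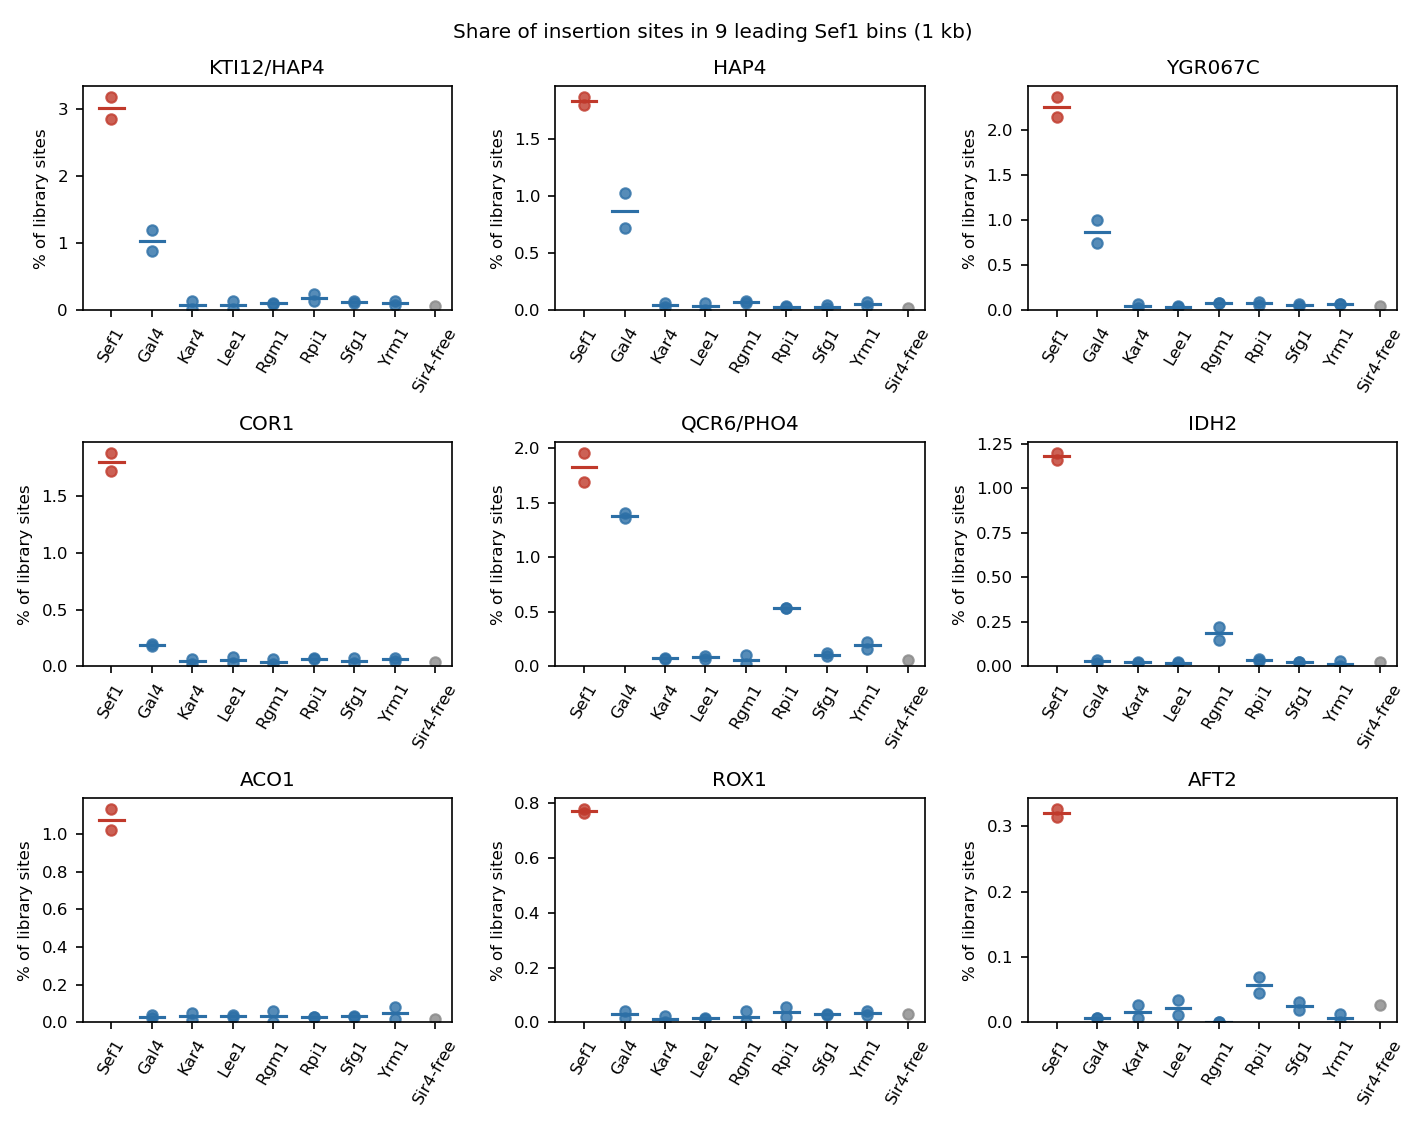
Percent of library sites in 9 leading Sef1 bins, each 1 kb, with 1 point per replicate, a line at the mean of 2, and the Sir4-free library as a single grey point. Titles shorten bin names that hold several genes (COR1 also YBL044W and ECM13, IDH2 also BAG7, ROX1 also YPR064W). The Sef1 points lie above all others in each panel, with Gal4 closest at KTI12/HAP4, HAP4, YGR067C and QCR6/PHO4.

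Of the hypoxic genes themselves 2 of 10 were called, against 4.97% over all genes, a difference that was not tested. OLE1, the fatty acid desaturase, had 38 and 37 Sef1 sites in the bin shared with SDS23, 0.256% ± 0.0033, and a log2 difference of 3.56 ± 0.33. ERG11, a sterol demethylase of ergosterol synthesis, had 27 and 21 (1.51 ± 0.30) and missed the threshold with relative-log-expression factors (adjusted p 0.079, edgeR). Other genes of ergosterol synthesis and of acetyl-CoA supply stood among the 25 leading bins: ERG3, a sterol desaturase beside SPT8, with 74 and 59 Sef1 sites, and ACS2, an acetyl-CoA synthetase beside RNH203, with 68 and 59. At both, Sef1 exceeded each other fusion.

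AFT2 and AFT1, which encode the paired activators that switch on iron uptake when iron is low, were both called. Of the iron regulon list 3 of 26 members were called, against 4.97% over all genes, a difference that was not tested. AFT2 had 49 and 45 Sef1 sites, 0.320% ± 0.00911, against 0% to 0.0694% in the other libraries, with a log2 difference of 4.89 ± 0.34, and AFT1 had 35 and 50, 0.291% ± 0.0815, against 0.0072% to 0.146%, with 3.21 ± 0.28. Both passed against each of the 7 fusions, while the Leu3 library outside the pools held 98 sites at AFT1, 0.919% of its sites. The third called member of the iron regulon list of 26 was VHT1, a biotin transporter, with 8 and 9 sites (adjusted p 0.0454), a call lost under 15 alternatives. FET3, FET4 and FRE1, for an iron oxidase, an iron transporter and a ferric reductase, had 11 and 9, 14 and 10, and 13 and 12 Sef1 sites and were not called. Whether Sef1 differs between regulators and transporters of iron was not tested.

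Iron-sulfur cluster assembly had 3 of 13 called, and heme synthesis 0 of 8, against 4.97% over all genes. At that level a list as small as that of heme synthesis can hold 0. ISU1, the scaffold protein of cluster assembly, had 39 and 33 Sef1 sites in the bin shared with GIP3 (log2 2.44 ± 0.29), where Yrm1 was higher than Sef1. ISA1, which serves the maturation of clusters in aconitase-type enzymes, had 12 and 8 (4.88 ± 0.72). YAH1, the ferredoxin, had 17 and 12 (adjusted p 0.0209) and lost the call under 11 alternatives. HEM12 had the most Sef1 sites of the heme genes, 9 and 9, against a median share of 0.0551% in the other libraries and 0.0614% in Sef1.

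Carriers of the inner mitochondrial membrane were called in 4 of 14 cases, against 4.97% over all genes. PIC2, a phosphate and copper carrier, had 40 and 45 Sef1 sites (0.290% ± 0.0333; log2 3.97 ± 0.31), and OAC1, the oxaloacetate carrier, 17 and 14 (3.17 ± 0.48). PET9, the main ADP/ATP carrier, had 25 and 15 (2.00 ± 0.34), and DIC1, the dicarboxylate carrier, 22 and 17 (1.58 ± 0.33). Of these PIC2 and PET9 passed against each other fusion, and the DIC1 call was lost under 5 alternatives. JEN1, which brings lactate and pyruvate into the cell, was outside these lists and among the leading bins, with 100 and 99 Sef1 sites, 0.678% ± 0.0167, against 0.0512% to 0.166% (log2 2.92 ± 0.19).

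The 3 lists of sugar use together had 3 of 38 members called, too close to the 4.97% over all genes to be read as a result about them. In glycolysis 1 of 17 members was called (PYK2), in fermentation 1 of 11 (ALD6), in hexose transport 1 of 10 (RGT2) and in glutamate and nitrogen metabolism 1 of 10 (GLN1). The 4 log2 differences lay between 1.06 and 1.20, and each of these calls was lost with relative-log-expression factors. Pyruvate entry into mitochondria had 1 of 7 (MPC3, with 10 and 8 sites), and heat shock genes 1 of 17 (HSP30, with 12 and 14). Of 129 ribosomal protein genes 0 were called.

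Several calls of higher adjusted p were lost when 1 library was left out. Leaving out Sef1 replicate 1 removed those of DIC1 (adjusted p 0.0755, edgeR), MPC3 (0.0816), VHT1 (0.218), ALD6 (0.369), QCR7 (0.493), YAH1 (0.821) and CIT3 (0.940). Leaving out Sef1 replicate 2 removed those of YAH1 (adjusted p 0.0996, edgeR), PYK2 (0.135), QCR7 (0.366), ATP14 (0.475), VHT1 (0.582), RGT2 and GLN1. Without replicate 1 the log2 difference was 1.60 at QCR7 (1.61 with both), 2.31 at MPC3 (2.41) and 1.46 at DIC1 (1.58), so these calls were lost at a similar size. Without replicate 2 it was 1.63 at QCR7, and it was smaller at ATP14 (1.55, against 2.29 with both), RGT2 (0.84, against 1.20) and GLN1 (0.61, against 1.15). The 2 Sef1 replicates differed most at ATP14, GLN1 and RGT2 among the genes lost without replicate 2, with 9 and 20, 15 and 27, and 13 and 19 sites. Leaving out 1 library of another fusion removed the call of QCR7 (without Kar4 replicate 1, adjusted p 0.0631, or Rpi1 replicate 2, 0.0543, edgeR), of YAH1 (without Rpi1 replicate 1, 0.0516) and of VHT1. For VHT1 these were Gal4 replicate 1, Kar4 replicate 1, Rpi1 replicate 1 and both Rgm1 replicates, with adjusted p values of 0.0627 to 0.0824 (edgeR). When reads replaced sites, CIT2, MDH2, OLE1, ERG11, OAC1, PET9 and HSP30 also missed the threshold, with adjusted p values from 0.0629 at OLE1 (edgeR).

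The targets of Gal4, a family relative in the same pools, were not called in Sef1. The count was 0 of 11, against 4.97% over all genes, at which a list this small can hold 0. The 10 bins they occupy held 0.653% and 0.390% of the Sef1 sites, 11.2% and 11.2% of the Gal4 sites, and 0.319% to 2.12% in the 12 libraries of the other 6 fusions. In the bin between GAL10 and GAL1 Sef1 had 23 and 6 sites, whereas Gal4 had 611 and 533. That bin was nevertheless higher in Sef1 than in the Sir4-free library.

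Gal4 was also the fusion that Sef1 exceeded in the fewest of its higher bins. Of the 200 higher bins Sef1 exceeded Gal4 in 101 (over all tested bins 1.9%), Rpi1 in 125 (2.34%), Yrm1 in 134 (2.78%) and Lee1 in 141 (2.77%). It exceeded Rgm1 in 142 (3.15%), Kar4 in 148 (2.95%) and Sfg1 in 150 (2.89%). Another fusion was higher than Sef1 in 31 of them, so the mean of the 7 hides single fusions that share a bin. This was Gal4 in 22 (over all tested bins 2.53%), Yrm1 in 8 (2.58%), Rgm1 in 2 (0.989%) and Rpi1 in 1 (1.37%), and in no case Kar4 (2.29%), Lee1 (0.147%) or Sfg1 (0.293%). These contrasts use the same Sef1 libraries as the choice of the 200 bins. They also depend on the scaling. The TMM factors were 0.688 and 0.665 for Gal4, 0.936 and 0.895 for Sef1, and 1.74 and 1.66 for Rgm1. Relative to the raw shares, these factors lower Sef1 over Gal4 and raise Sef1 over Rgm1. Of all tested bins 61 (1.12%) were higher in Sef1 than in each of the 7 fusions, and all 61 are among the 200. With relative-log-expression factors this count was 38. Of the 25 leading bins 20 were in this class.

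The 5 leading bins outside it show 3 patterns of sharing. At QCR6 and PHO4 Sef1 and Gal4 could not be separated. At YAR035C-A, IZH3, a gene of zinc homeostasis, and MDH1 Gal4 was higher: Sef1 had 0.362% ± 0.0211 at YAR035C-A against 0.634% ± 0.071 in Gal4, and 0.556% ± 0.0418 at IZH3 against 0.793% ± 0.060. At YMR103C Sef1 had 211 and 217 sites, 1.46% ± 0.0753, and Yrm1 2.36% ± 0.063, with a log2 difference of Sef1 over Yrm1 of -0.76 ± 0.20 (adjusted p 0.00282).

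**Figure D5:**
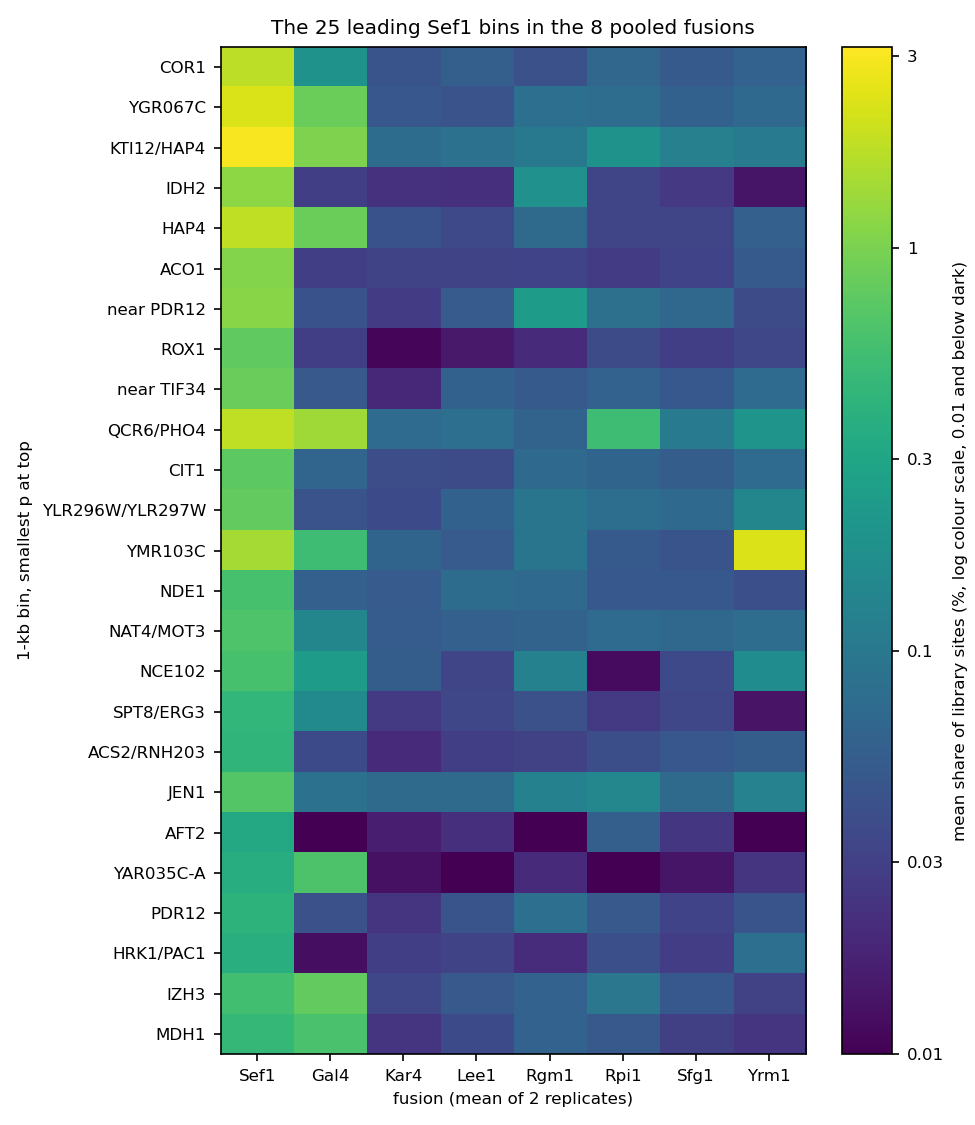
Mean share of library sites (colour, percent, log scale) of the 25 leading Sef1 bins (rows, smallest p at the top) in the 8 pooled fusions (columns, mean of 2 replicates, Sef1 at the left). Gal4 is also bright at KTI12/HAP4, HAP4, YGR067C, QCR6/PHO4, YAR035C-A, IZH3 and MDH1, and Yrm1 at YMR103C. Several row names are shortened to fewer genes.

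Further leading bins lay outside the lists. YGR067C, which encodes a protein with zinc fingers, had 323 and 341 Sef1 sites (chromosome 7, 625001 to 626000), 2.26% ± 0.159, the second highest share, against 0.0260% to 1.00% in the other libraries, with Gal4 at the top of that range. PDR12, the plasma membrane pump that exports weak acids, had 54 and 66 Sef1 sites in its bin and 168 and 165 in the next bin (chromosome 16, 451001 to 452000), 1.13% ± 0.0216, against 0.0192% to 0.283%. NCE102, a membrane protein of eisosomes, had 85 and 87, the pair YLR296W and YLR297W 121 and 112, and HRK1, a kinase that activates the plasma membrane proton pump, 72 and 37 in the bin it shares with YOR268C and PAC1. All of these passed against each of the 7 fusions. The 25 leading bins together held 24.5% and 24.8% of the Sef1 sites, against 0.711% to 8.15% in the other 14 libraries (median 1.83%) and 1.12% in the Sir4-free library. In 21 of them both Sef1 libraries lay above all 14 others, and over the 200 higher bins this held in 124. The 25 and the 200 bins were chosen by p on these same libraries, so these values describe the choice and are no separate evidence. The same count over all tested bins is not given here.

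Against the Sir4-free library, which is a single library, 148 of 7003 bins (2.11%) were higher in Sef1 and 15 (0.214%) were lower. All 25 leading bins were among the higher ones. The 2 comparisons share the Sef1 libraries, and 137 of the 200 bins were higher in both. Upstream of 3.48% of genes a bin was higher in this comparison. Of the called list members COR1, QCR6, NDE1, CIT1, ACO1, IDH1, IDH2, FUM1, MDH1, HAP4, ROX1, MOT3, ADR1, AFT1 and AFT2 were above the Sir4-free library, and QCR7, CIT3, ATP14, MPC3, YAH1, VHT1, RGT2 and GLN1 were not. When sites with fewer than 5 reads were left out, 89 bins were higher than in that library.

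For the 5 libraries outside the pools, a Fisher's exact test compared each with the Sir4-free library. In the Gal4 library made with that fusion alone 2.67% of bins were higher, and 12 of the 25 leading Sef1 bins were among them. The share was 1.89% in the Leu3 library, with 3 of the 25, and 2.22% in the Gcn4 library, with 1. In the Thi2 libraries it was 0.119% in complete medium and 0.396% under thiamine starvation, with 0 of the 25 in both. Some called list members held a higher share in one of these libraries than the mean of the Sef1 libraries, a comparison that was not tested. In the Gal4 library these were PYK2 (1.29%), ADR1 (0.740%), MDH1 (0.471%) and ALD6 (0.426%). In the Leu3 library DIC1 had 113 sites, 1.06%, AFT1 98 sites, 0.919%, OAC1 63 and PET9 61. In the Gcn4 library YAH1 had 110 sites, 0.462%, and VHT1 28.

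The lower bin lay at SDD1 and HAT2 (chromosome 5, 46001 to 47000). Sef1 had 0 and 0 sites, and the other 14 libraries had 0.00673% to 0.236% (median 0.0263%), Gal4 being the highest. Because both Sef1 counts are 0, the fitted log2 difference is no measure of size, and the adjusted p was 0.00899. The call was lost without either Sef1 replicate (adjusted p 0.29 and 0.226, edgeR) and when sites with 1 read were left out. At the promoter of SEF1 itself, in the bin shared with PRX1, Sef1 also had 0 and 0 sites, within the 0% to 0.0192% of the other libraries, and the bin was not called.

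The depth and the sharing of sites set the precision of these values. The 16 libraries had 4755 to 54987 sites, the Rgm1 libraries being the smallest, and the limits given for counts of 0 cover counting error only. Sef1 sites in the 200 bins carried more reads than sites elsewhere, a median of 9 and 5 against 4 and 3. Of the exact sites of Sef1 replicate 1 20.5% were also listed in Sef1 replicate 2, and of those of replicate 2 21.4% in replicate 1 (3070 sites). With the libraries of the other 7 fusions the overlap was lower, a median of 5.69% of the Sef1 replicate 1 sites in libraries of its own pool and 3.95% in those of the other pool. For Sef1 replicate 2 the medians were 4.37% and 5.21%. The highest overlaps with another fusion were 12.1% with Sfg1 replicate 1, the deepest pooled library, and 11.3% with the same library for Sef1 replicate 2. Gal4 replicate 1, with 16116 sites, was close to this, at 11.4% and 10.9%. The shared sites were 10.6% and 9.70% of that Gal4 library, and 3.30% and 2.95% of the Sfg1 library. The part of shared sites in the results was not tested.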

How the data were processed

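The authors deposited, per the series text, 1 file per library with the chromosome, position and direction of each Ty5 insertion and its raw read count. Insertions were assigned to a fusion by a barcode, per the labels. Genomic DNA was cut with Hinp1I, HpaII or TaqI (3 enzymes), self-ligated, amplified by inverse PCR and sequenced on an Illumina GAII, so insertions far from such sites are less visible. For the aligner, genome build and read filters: not given in the sources used here.

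Distinct sites were counted per 1000-bp bin, and bins with at least 10 sites in the 16 pooled libraries were fitted in edgeR 4.0.16 (limma 3.58.1, R 4.3.3; TMM factors, glmQLFit, glmQLFTest) without covariates, with all sites as library size. The fit had 8 residual degrees of freedom and a biological coefficient of variation of 0.0908. Sef1 was contrasted with the mean of the log2 levels of the other 7 fusions and with each of them. In a fit that adds the Sir4-free library, Sef1 was contrasted with that library, whose spread is taken from the pooled libraries. Benjamini-Hochberg adjustment ran over all bins of a contrast (threshold 0.05). The fits were tested on simulated data. DESeq2 1.42.0, other factors, filters, bins and left-out libraries were alternatives. Tables and plots were made in matplotlib 3.10.9, scipy 1.17.1, pandas 2.3.3 and numpy 2.4.6 under Python 3.11.15.

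Names and strands come from the RefSeq table of assembly R64, whose build may differ: on chromosome 11 beyond about 200000 bp it was displaced by 380 bp, which was applied, and 77 of 84 other segments lay within 60 bp. Genes with a 5′ end within 500 bp (900 bp on chromosome 11) name a bin. Reads cannot assign a bin between divergent genes to one of them. The text names the 25 higher bins with smallest p, lower bins, called members of 22 lists, up to 3 uncalled members with most Sef1 sites per list, and SEF1. Lists and libraries were chosen with earlier results of these data known. The labels give a replicate number, and libraries with the same number were taken to be from the same pool. Log2 differences of the 2 replicates, over 252 bins with at least 160 sites, correlated between Sef1 and the other fusions by 0.0113 to 0.216 (4 of 7 above 0.1). Where nothing says that replicates came from separate cultures, p values measure only the spread between these libraries.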

Additional observations from a re-analysis of the deposited data

Results flagged for a closer look

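Libraries outside the pooled comparison also held sites in the leading Sef1 bins. In the single libraries of a Gal4, Leu3 or Gcn4 fusion profiled on its own, the following counts were above the Sir4-free library (Fisher's exact test, two-sided, on each bin, with Benjamini-Hochberg adjustment and a threshold of 0.05. There was 1 library each, so the test compares libraries and not conditions). The background of such calls was 2.67% of bins for Gal4, 1.89% for Leu3 and 2.22% for Gcn4.

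The Gal4 library had 144 sites at KTI12/HAP4, 92 at HAP4, 95 at YGR067C and 24 at COR1. At QCR6/PHO4 it had 55 sites, at YMR103C 84, at NCE102 54, at SPT8/ERG3 22 and at NAT4/MOT3 20. At the bins where the pooled Gal4 libraries exceeded Sef1 it had 121 sites at YAR035C-A, 112 at IZH3 and 63 at MDH1. Thus 12 of the 25 leading Sef1 bins were above the background library there. The Leu3 library had 173 sites at QCR6/PHO4, 57 at NAT4/MOT3 and 35 at YGR067C. The Gcn4 library had 28 sites at COR1. In the other 2 libraries outside the pools, those of Thi2 in 2 media, no leading Sef1 bin passed this test. ACO1, BAG7/IDH2, YPR064W/ROX1, AFT2, CIT1, NDE1 and JEN1 did not pass in any of the 5 libraries. The same held for PDR12, the bin near PDR12, the bin near TIF34, YLR296W/YLR297W, ACS2/RNH203 and HRK1/YOR268C/PAC1.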

How the results depend on the processing

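Higher bins numbered 200, 124 with relative-log-expression factors, 113 with DESeq2, and 139 to 214 when 1 library was left out. The lowest counts came without a Sef1 replicate, 150 without replicate 1 and 139 without replicate 2, where the lone Sef1 library is assumed to vary like the others. The 1 lower bin became 27 with relative-log-expression factors, 29 with DESeq2, 9 with at least 30 sites per bin, 6 without the Rgm1 libraries, 3 with reads per bin, 2 with bins shifted by 500 bp, 0 without sites of 1 read, and 0 to 1 with 1 library left out. Bins above each fusion numbered 61, 38 with relative-log-expression factors and 46 to 63 with 1 library left out. Bins above the Sir4-free library numbered 148, 89 with sites of at least 5 reads and 113 to 151 with 1 library left out. Of the 200 higher bins, 79 were still called higher with reads per bin, the fewest of any setting with 1-kb bins. In all 166 bins were higher there, so many of them were other bins. With sites of at least 5 reads 135 bins were higher, and 131 of them were among the 200. Among the results named here, none changed direction past the threshold. With the replicate number as a block, the paired fit had 202 higher bins and 1 lower, and it removed no call of a named bin. Of 53 called named bins 34 kept their call in every setting and 19 lost it in at least 1, of which 12 lost it without a Sef1 replicate. The causes were not tested. The block could not be fitted for the Sir4-free library, and bins shifted or of 500 bp give no value for named bins.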

Other observations

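Other genes of the 200 bins higher in Sef1 were named here for what they are known to do, after their values were seen, so no count over them is evidence. Several belong to pyruvate, lactate and amino acid metabolism next to the citrate cycle. DLD1, a mitochondrial lactate dehydrogenase, had 32 and 24 Sef1 sites in the bin it shares with PAR32 (log2 difference 3.97). AAT2, the cytosolic aspartate aminotransferase, had 11 and 20 (4.95), and PYC1, a pyruvate carboxylase, 38 and 41 beside PUS2 (1.85). PDH1 and ICL2, both of propionate breakdown, had 21 and 21 (4.29) and 5 and 12 (3.75). ZWF1, the entry enzyme of the pentose phosphate pathway, had 61 and 79 (1.81), but Gal4 and Yrm1 were higher there: Sef1 averaged 0.479% ± 0.102 and Yrm1 0.852% ± 0.120 (SD, n = 2 each; log2 difference of Sef1 over Yrm1 -0.91, edgeR adjusted p 0.00195).

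Genes of the plasma membrane formed a further set. PMP3 had 49 and 47 Sef1 sites in 1 bin and 36 and 33 in the next, PMP1, a small protein that associates with the proton pump, 63 and 56, and PMA1, the pump itself, 28 and 38 (log2 difference 1.20), with Gal4 higher than Sef1 (log2 of Sef1 over Gal4 -0.92, edgeR adjusted p 0.0267). The polyamine exporter TPO1 had 64 and 44 in its own bin, and its relative TPO3 had 43 and 29 beside TDA6. Among regulators, SFG1, whose own fusion was in the pools, had 47 and 52 Sef1 sites (log2 3.77), IXR1, of hypoxic regulation, 12 and 16 (3.06), CUP2, the copper-dependent activator, 9 and 9 (3.95), and SUT1, of sterol uptake, 18 and 26 (1.58). THI2, the thiamine regulator, had 8 and 8 (2.12) and was not above the Sir4-free library.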
